A study of Mus musculus with 3 samples.

Results

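The genes described here are the antisense RNA genes that were detected in the chromatin fraction of Lipid A stimulated mouse macrophages. They were selected on measured values: a gene had a transcript of the GENCODE type antisense, none of the types protein_coding or lincRNA, and at least 1 TPM (a transcript level scaled by length and by library) in each of 3 libraries. Host genes with the symbols Snhg, Mir...hg and Gas5 were left out. Of 3063 annotated genes of these types, 425 met the rule, which is 13.9%, whereas 10143 of all 55536 genes, or 18.3%, reached the same level. Because the level selected them, their levels are given as a description, without a test. The annotation gave 407 of them the gene type antisense and 18 the type processed_transcript.

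The cells were bone-marrow-derived macrophages (BMDM), primary cells of mouse strain C57BL/6J, grown in culture from marrow precursors. All were stimulated with Lipid A at 100 ng/ml for 60 minutes, and the chromatin-bound RNA was sequenced after depletion of ribosomal RNA. Toll-like receptor 4 (TLR4), the receptor that senses Lipid A of the bacterial outer membrane, switches on NF-kB and interferon regulatory factors. The 3 libraries form 1 group of biological replicates, made from 1000 ng (replicate 1), 250 ng (replicate 2) and 500 ng (replicate 3) of RNA. All carry the same donor entry, and sex and age were not collected, so the spread given below is that between these libraries and may be technical. No unstimulated sample was analysed here.

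Antisense RNAs are transcribed from the strand opposite to another gene, often a coding one, and many stay bound to chromatin near the place where they are made. Some act in cis: Airn and Kcnq1ot1 are long imprinted RNAs that silence neighbouring genes on the chromosome that makes them. Others are host transcripts for small RNAs, or are known only from the annotation. A chromatin fraction holds nascent, partly spliced transcripts, so introns of coding genes are present beside these RNAs.

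The first pair of sequences shows how small the exonic contact between an antisense RNA and an inflammatory gene can be. Both stretches come from GENCODE M21 transcripts on mm10, 5′ to 3′, and the capitals mark the bases that are also exonic in the coding partner on the other strand. For Il1bos the capitals lie at chr2:129369897-129369921, in an exon of Il1b, the gene of the cytokine interleukin 1 beta. None of these 25 bases is annotated as coding or untranslated sequence of Il1b. For Gm47009 the 28 bases lie at chr10:120170318-120170345, in coding sequence of Irak3, a kinase-like inhibitor of TLR signalling.
Il1bos: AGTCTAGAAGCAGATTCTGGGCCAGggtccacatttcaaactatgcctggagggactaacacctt
Gm47009: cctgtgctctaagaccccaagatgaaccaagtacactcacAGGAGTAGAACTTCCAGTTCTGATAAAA

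The second set belongs to members with no expressed coding gene on either strand, for which the start region is the nearest feature to look at. Each promoter is the RefSeq window on GRCm38.p6 from 250 bases before to 50 bases after the start, read in the direction of the gene. Searched on both strands were an NF-kB motif, an interferon response motif (GAAA repeated after 2 bases of any kind), the AP-1 motif TGACTCA, the PU.1 motif GAGGAAGT, the TATA motif TATAAA and the motif CCAAT, and capitals mark every match. F630028O10Rik (chrX:96239676-96239975, plus strand) holds 1 match to the interferon response motif, on the opposite strand. Kcnq1ot1 (chr7:143296498-143296797, minus strand) holds 3 matches to CCAAT.
F630028O10Rik: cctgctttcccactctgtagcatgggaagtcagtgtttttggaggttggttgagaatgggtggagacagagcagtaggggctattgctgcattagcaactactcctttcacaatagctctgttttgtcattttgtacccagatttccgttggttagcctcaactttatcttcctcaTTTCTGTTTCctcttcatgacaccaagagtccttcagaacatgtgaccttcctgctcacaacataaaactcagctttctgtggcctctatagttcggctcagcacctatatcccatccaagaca
Kcnq1ot1: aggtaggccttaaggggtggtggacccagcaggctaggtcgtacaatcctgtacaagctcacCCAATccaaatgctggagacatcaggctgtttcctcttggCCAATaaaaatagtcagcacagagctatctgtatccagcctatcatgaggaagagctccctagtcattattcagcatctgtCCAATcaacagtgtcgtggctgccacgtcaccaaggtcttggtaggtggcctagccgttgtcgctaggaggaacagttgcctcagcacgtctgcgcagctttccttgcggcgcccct

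RefSeq promoters were matched by symbol to 143 of the 425 genes, and in 85 of them the RefSeq start lay within 100 bases of the GENCODE start. The motif CCAAT occurred in 28 of the 85 (32.9%) and in 37.4% of all 32851 promoters in the table. The interferon response motif occurred in 1 (1.18%, against 3.44%), TGACTCA in 5 (5.88%, against 5.20%), GAGGAAGT in 3 (3.53%, against 3.20%), TATAAA in 9 (10.6%, against 13.6%) and the NF-kB motif in 0 (against 0.411%). The median number of CpG pairs was 7 in the 85 windows and 7 in all windows. A match is a description of the letters in the window and shows no binding.

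F630028O10Rik contains the hairpin of miR-223, a microRNA known from myeloid cells, within its long exon (chrX:96242817-96242926). Both mature arms are printed from RefSeq with the seed, bases 2 to 8, in capitals.
mmu-miR-223-5p: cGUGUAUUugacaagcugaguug
mmu-miR-223-3p: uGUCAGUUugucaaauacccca
Hairpins also lay within Gm47079 (Mir1900) and Tmcc3os (Mir7211), and within no other of the 425 genes.

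Expected counts assigned to genes were 13318395, 15352661 and 15812581 in replicates 1, 2 and 3. All 12 macrophage markers tested passed 1 TPM in every library, from 1.82 to 454 TPM on average, among them Ptprc, the leukocyte phosphatase CD45, and Csf1r, the receptor for the growth factor CSF1. Of 23 markers of T cells, B cells, neutrophils, fibroblasts, endothelial and erythroid cells, 9 were at 0 in the mean and only Kdr, an endothelial receptor, passed, at 1.95 TPM. In these bulk libraries a smaller number of cells that make an RNA and less of that RNA per cell cannot be told apart. Sources used here do not state whether the libraries and the counting kept the strand. Where strand was not used, reads from a coding gene and from its antisense gene cannot be told apart, and this bears on every level below.

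The 425 antisense genes were mostly scarce. In the mean of 3 libraries their median level was 4.46 TPM, with quartiles of 2.39 and 10.3 TPM, and 72 genes were under 2 TPM. Only 108 reached 10 TPM, 29 reached 30 TPM and 2 reached 100 TPM. Median log2(TPM + 1) was 2.25, 2.57 and 2.45 in replicates 1, 2 and 3, or 2.42 ± 0.16 (SD, n = 3), beside 3.19 ± 0.20 for the 7870 coding genes and 2.14 ± 0.28 for the 109 sense-intronic genes that passed the same limit. Together they took 0.720% ± 0.0529 (SD, n = 3) of the counts. Kcnq1ot1, whose annotated exon is 93092 bases long, held 12.1% of the counts of all 425, while its level per length was 8.03 TPM.

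The most abundant member was Gm40578 (ENSMUSG00000113029.1, mm10 chr12:111450405-111500840, minus strand), whose end overlaps Tnfaip2, a gene induced by tumour necrosis factor. It stood at 248, 344 and 330.1 TPM in replicates 1, 2 and 3, and Tnfaip2 at 2335, 2098 and 2414 TPM. Gm40578 was lowest in replicate 1, and in each library it was below Tnfaip2, on average at 13.5% of it. It alone made up 7.28% of the summed TPM of the 425 genes, and the leading 20 made up 31.2%.

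4933423P22Rik (chr2:90479236-90488425, plus strand), which lies inside Ptprj, a receptor tyrosine phosphatase, without touching its exons, was second. Its levels were 106, 166.7 and 123 TPM, and those of Ptprj were 122, 97.2 and 132 TPM. The antisense gene was above its host in replicate 2 and below it in the other two. AC119228.1 (chr19:29373417-29384471, minus strand) lies inside Cd274, which encodes the immune checkpoint ligand PD-L1, and shares 511 exonic bases with it. It had 76.8, 124 and 94.3 TPM beside 106, 133 and 134 TPM for Cd274, and was below it in every library.

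**Figure D1:**
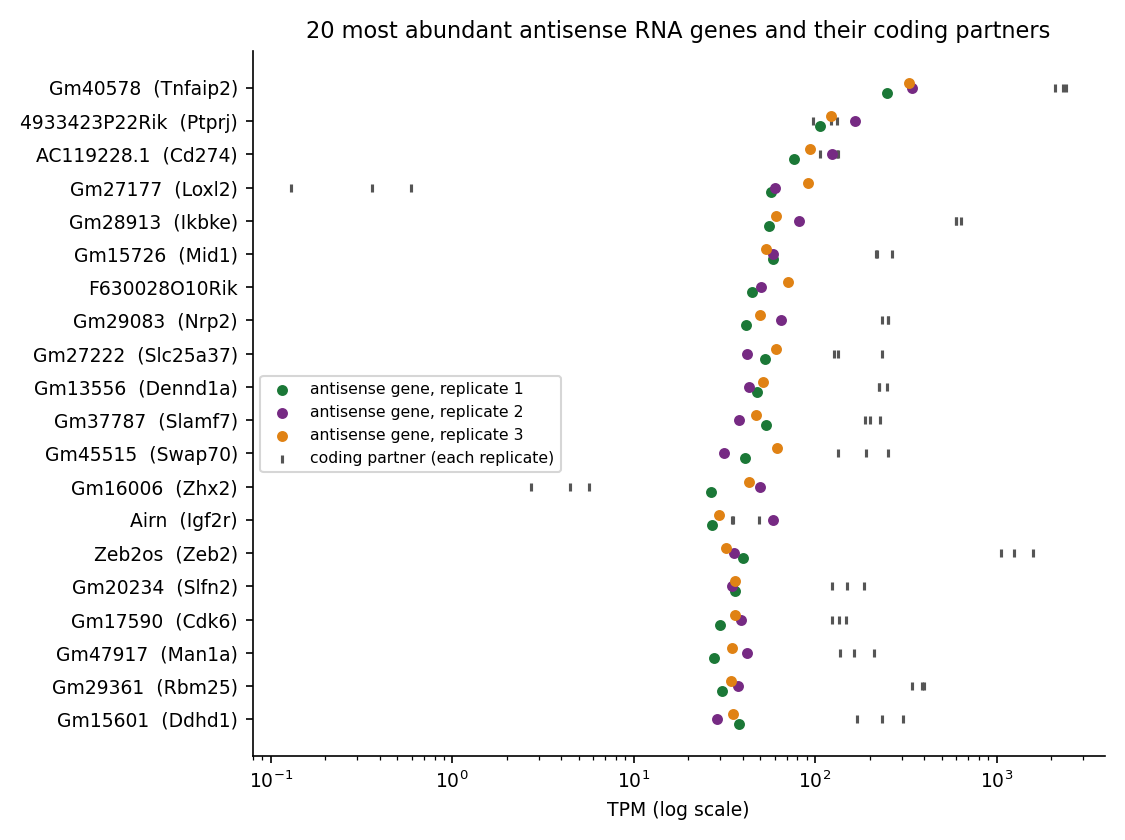
The 20 antisense genes with the highest mean TPM (rows, with the coding partner in brackets) in replicates 1, 2 and 3 (coloured points), and the partner in each replicate (grey ticks), on a log axis of TPM. F630028O10Rik has no partner, and Gm27177 and Gm16006 stand above theirs in all 3 replicates, whereas Gm40578 stands below Tnfaip2 in all 3.

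Another 4 of the leading 20 are given here with their partners. Gm28913 had 55.8, 81.5 and 61.3 TPM inside Ikbke, the kinase IKK epsilon, which itself had 599, 599 and 640.2 TPM. Gm37787 (46.4 ± 7.76 TPM, SD, n = 3) shares 423 exonic bases with Slamf7, a receptor of the SLAM family at 206 TPM. Gm29083 (52.2 ± 12.0 TPM) lies in an intron of Nrp2, which encodes the receptor neuropilin 2, at 247 TPM. Gm17590 (35.1 ± 4.67 TPM) lies inside Cdk6, a cell cycle kinase at 136 TPM. For each of these 4 the partner was higher in the mean.

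Not every high level is unique to its gene. All 31-base words of Gm27177 (69.4 TPM) also occur on the same strand in transcripts of Gm16867 or another gene, and all words of Gm27222 (51.8 TPM) in transcripts of Gm21451 or another gene, so their levels rest on how shared reads were divided. More than 50% of the words were shared in this way in 6 of the 425 genes, the others being Gm10552, Gm17017, Gm43079 and Gm48754. In the median gene none was shared on the same strand, 7.92% were the reverse complement of another gene's transcript, and 91.3% occurred in no other gene on either strand. In 28 genes over 50% of the words were the reverse complement of other transcripts.

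Both imprinted antisense RNAs introduced above were detected, at different levels relative to the gene they overlap. Airn (chr17:12741311-12860136, plus strand) had 27.2, 58.9 and 29.5 TPM, and Igf2r, the mannose 6-phosphate receptor gene that it silences, had 35.1, 49.0 and 34.9 TPM. Both were highest in replicate 2, and Airn lay above Igf2r there and below it in replicates 1 and 3. A second quantification, described below, gave Airn 124, 203.5 and 133 TPM. The level of Igf2r in it is not given here, so the order of both genes holds for the first quantification only. Kcnq1ot1 (chr7:143203458-143296549, minus strand) had 6.19, 10.2 and 7.76 TPM, while the potassium channel gene Kcnq1, within which it lies, had 0.25, 0.09 and 0.04 TPM. Kcnq1 was under the limit of 1 TPM in every library, while Kcnq1ot1 was above it by the selection rule. A partner under 1 TPM in the mean was found for 23 members. Whether Kcnq1ot1 lowers Kcnq1 in these cells was not tested.

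Other antisense RNAs with established symbols covered a wide range. Zfas1, the host of small nucleolar RNAs beside Znfx1, had 33.3 ± 8.68 TPM (SD, n = 3). Tug1, a long nuclear RNA that shares a start region with Morc2a, had 23.4 ± 6.06 TPM, and Morc2a had 13.4 TPM. Kdm6bos, inside the histone demethylase gene Kdm6b (143 TPM), had 30.5 ± 4.50 TPM, and Dnmt3aos, inside the DNA methyltransferase gene Dnmt3a (53.5 TPM), had 1.82 ± 0.166 TPM. Gt(ROSA)26Sor, the transcript of the locus used for transgenes, had 6.39 ± 1.88 TPM. Rptoros, inside Rptor, a subunit of the kinase complex mTORC1, had 3.67 ± 1.10 TPM.

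By position, 411 of the 425 genes (96.7%) overlapped a coding gene on the opposite strand. When several did so, the partner named here is the one with the longest overlap. In 245 genes exons of both overlapped, in 142 the antisense gene lay inside the partner without touching its exons, and in 24 only the spans met. For 2 the partner's start lay head to head without overlap, and 12 had no partner. The exonic overlaps had a median of 287 bases, or 17.9% of the antisense exons. They covered under 10 bases in 4 genes, such as the 6 bases that Aknaos shares with Akna, and more than 50% of the antisense exons in 30. Partners numbered 383, since 23 coding genes had several members, led by Arhgap10 (115 TPM) with 4 antisense genes between 7.27 and 31.6 TPM.

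By geometry among all 3063 annotated genes, those inside their partner were detected in 278 of 1638 cases (17.0%), those whose ends overlapped in 67 of 441 (15.2%), and those whose starts overlapped in 55 of 648 (8.49%). Where both starts lay within 1 kb of each other, as in a shared promoter region, 28 of 435 genes passed (6.44%), against 385 of 2503 (15.4%) with starts further apart. Genes with 1 exon passed in 30 of 187 cases (16.0%) and those with several exons in 395 of 2876 (13.7%). The median exonic length was 1234 bases in the detected genes and 958 bases in all 3063.

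Detection was more frequent where the coding gene was more abundant. Of the 383 partners, 354 (92.4%) were themselves at 1 TPM or more in all libraries, beside 1027 of the 2467 partners of all annotated antisense genes (41.6%) and 35.7% of coding genes. Where the partner had a mean under 0.1 TPM, 8 of 1078 antisense genes were detected (0.742%). The partner is only the coding gene with the longest overlap. Several of the 8 also overlap an expressed coding gene, such as 1700019L13Rik with Csrnp1 (89.2 TPM) and Gm26642 with Rnpep (123 TPM). Others, such as 1500015A07Rik, overlap none of 1 TPM or more. The share was 3.17% (15 of 473) at partner levels of 0.1 to 1 TPM, 10.4% (49 of 472) at 1 to 5 TPM and 42.3% (93 of 220) at 20 to 50 TPM. It reached 74.5% (38 of 51) at 100 to 200 TPM and was 77.3% (17 of 22) and 69.2% (9 of 13) in the last bins, from 200 and from 500 TPM. Both genes were read from the same libraries, and whether reads of the partner were counted for the antisense gene was not tested.

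**Figure D2:**
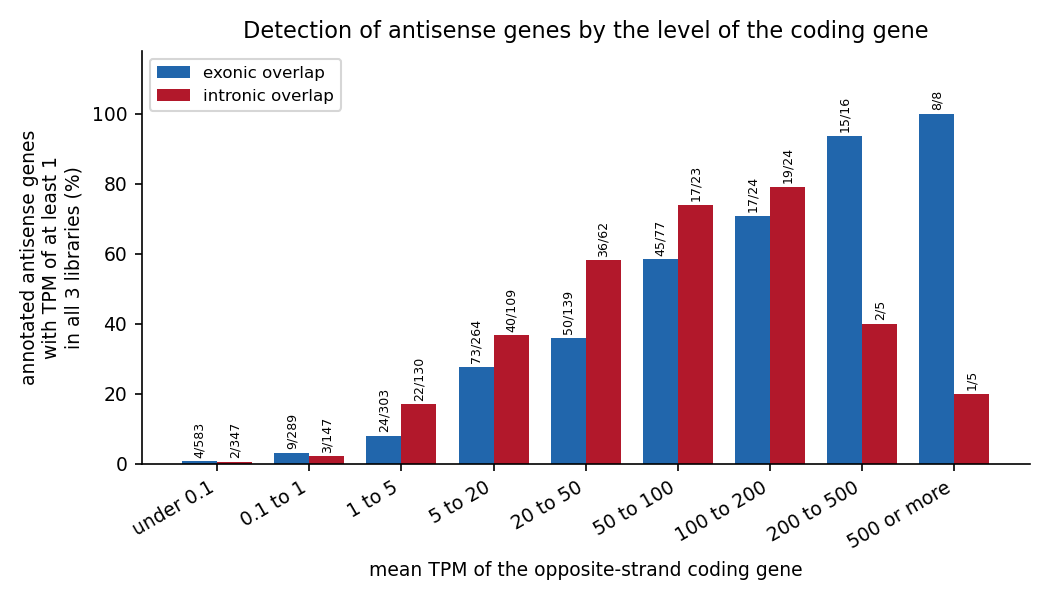
Share of annotated antisense genes detected (vertical axis, percent) by the mean TPM of the opposite-strand coding gene (horizontal axis). Exonic overlaps are blue and intronic ones red, and numbers give detected of annotated. The coding gene is the partner with the longest overlap, and a second coding gene at the same place may be expressed. With either overlap under 1% were detected where the partner was below 0.1 TPM, and 17 of 24 exonic and 19 of 24 intronic genes at 100 to 200 TPM; the last bins hold as few as 5 genes.

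Up to a partner level of 200 TPM the shares also increased for genes inside the partner that share no exonic base with it. Intronic antisense genes were detected in 2 of 347 cases under a partner level of 0.1 TPM (0.576%), in 36 of 62 at 20 to 50 TPM (58.1%) and in 19 of 24 at 100 to 200 TPM (79.2%). For exonic overlaps the shares at these levels were 0.686% (4 of 583), 36.0% (50 of 139) and 70.8% (17 of 24). Above 200 TPM both kinds parted, with 3 of 10 intronic genes detected and 23 of 24 exonic ones. These bins are small, and the difference was not tested.

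Within pairs the coding gene was usually the higher one. The median of log2(TPM + 1) of the partner minus that of the antisense gene was 1.90, 1.87 and 2.01 in replicates 1, 2 and 3, or 1.93 ± 0.07 (SD, n = 3). The partner was higher in all 3 libraries in 338 of 411 pairs, the antisense gene in 55, and 18 were mixed. The quartiles were 0.82 and 3.03, and the extremes were -5.67 and 7.82. Across the 411 pairs the levels of both genes had a Spearman correlation of 0.43 (0.45 over 245 exonic and 0.35 over 142 intronic pairs), a description over genes that share libraries and, for 51 members, a partner.

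**Figure D3:**
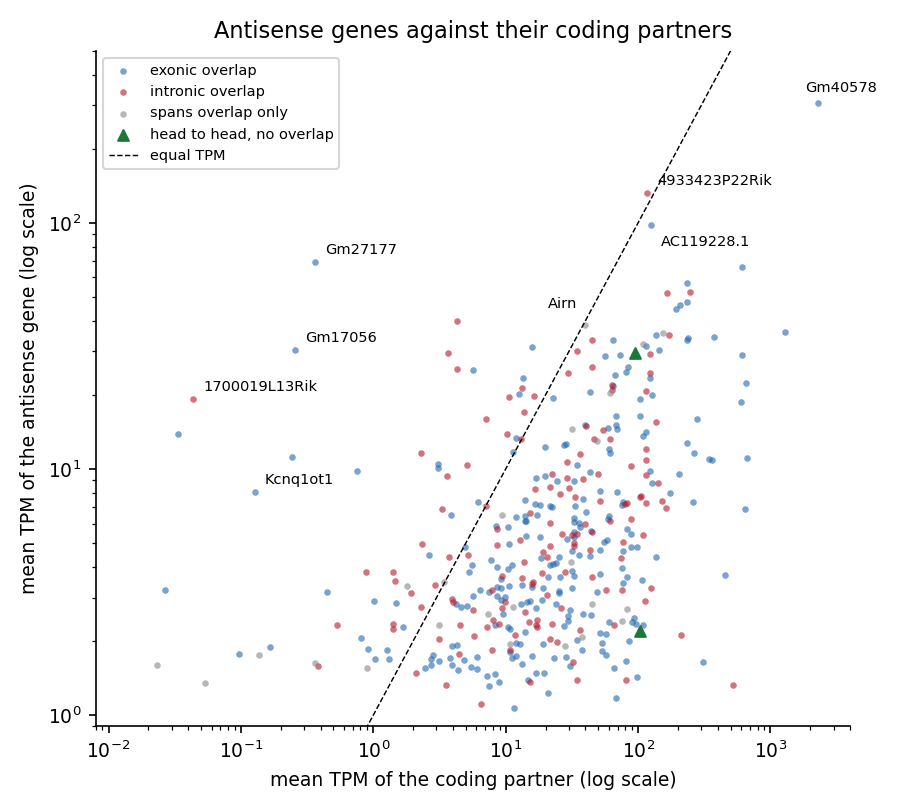
Mean TPM of antisense genes (vertical) against that of their coding partners (horizontal), both on log axes, coloured by the kind of overlap, with the line of equal TPM. Genes whose partner is at 0 TPM, such as Gm47079, are not drawn. Most points lie to the right of the line, where the partner is higher, and Gm27177, Gm17056, 1700019L13Rik and Kcnq1ot1 lie far to the left of it.

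The 8 largest differences belonged to antisense genes between 1.33 and 36.15 TPM, among them Il1bos and Zeb2os, described with the gene lists. Gm12301 had 1.02, 1.51 and 1.45 TPM within an intron of Gas7, a gene of an actin-binding protein, which had 480.0, 562 and 524 TPM. The difference was 7.82 ± 0.08 on the log2(TPM + 1) scale, with no overlap between the levels of both genes. E530011L22Rik (1.65 TPM) met the end of Nktr (312 TPM) at a difference of 6.91 ± 0.22, and Gm37305 (3.70 TPM) the start of the cyclin gene Ccnl1 (455 TPM) at 6.63 ± 0.37. Gm7008 beside Ifrd1 (6.39 ± 0.20) and Gm10851 inside Pfkfb3, a regulator of glycolysis (6.09 ± 0.30), followed.

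In the 8 most negative differences the antisense gene was at 8.03 TPM or more, and the coding gene was under 1 TPM in all but 1, Zhx2. Gm17056 (chr12:40198656-40201105, plus strand) had 21.5, 47.8 and 22.1 TPM, and Lsmem1, whose start it overlaps, had 0.11, 0.24 and 0.42 TPM. Gm17056 was highest in replicate 2, and every value of Gm17056 lay far above every value of Lsmem1. B930036N10Rik (11.2 ± 4.27 TPM) met the start of Alyref2 (0.243 TPM), and Gm16006 (39.9 ± 11.9 TPM) lay in an intron of Zhx2 (4.31 TPM).

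In several of these cases a second coding gene was active at the same place. 1700019L13Rik had 15.2, 19.4 and 22.9 TPM inside Cx3cr1, the fractalkine receptor gene, which had 0.03, 0.05 and 0.05 TPM. It also overlaps Csrnp1, at 89.2 TPM, by 1513 bases. Gm26642 (13.8 TPM) contains Elf3 (0.0333 TPM) and overlaps Rnpep (123 TPM) by 3732 bases. Gm47079 (10.8 TPM) contains Icam4 (0 TPM) and overlaps 511 bases of Icam1, an adhesion molecule of activated macrophages, at 469 TPM. Gm27177, beside Loxl2 (0.36 TPM), also meets Entpd4b (2.57 TPM), and its words are shared as said above. What part of these levels comes from the second gene was not tested.

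For 21 members no coding gene of 1 TPM or more in the mean overlapped on either strand, and for 7 of them none overlapped at all; these 21 were singled out after values were seen. Their levels ran from 1.56 to 55.2 TPM with a median of 2.96 TPM, and 19 of them have more than 1 exon. None had the end of an expressed coding gene of its own strand within 10 kb upstream. Only 30 of all 425 genes did, so its absence among 21 says little. For Gm14286, 1 of the 21, such an end lay just beyond, at 10893 bases (Blcap, 44.9 TPM). F630028O10Rik, the miR-223 host printed above, led them with 44.7, 50.1 and 70.9 TPM, highest in replicate 3. After Gm17056 and Gm16094 came B930036N10Rik, 1810032O08Rik (9.82 ± 1.47 TPM) and Kcnq1ot1. Gm16094 and Map2k3os overlap no coding gene but start close to an expressed one on the other strand.

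Among gene lists for the Lipid A response, the NF-kB list had the highest share of detected antisense genes, although the numbers are small. Of 8 antisense genes annotated over genes of the NF-kB list, 7 were detected (87.5%, beside 13.9% of all annotated antisense genes). They lie over 6 coding genes, and all 36 genes of that list were themselves above 1 TPM. Besides Gm40578 and Gm28913, Gm28914 had 20.9, 37.4 and 28.6 TPM, also inside Ikbke. Gm43964 (7.38 ± 1.45 TPM) lies in an intron of Irak2, a kinase of TLR signalling at 151 TPM. Gm16174 (5.96 ± 1.64 TPM) lies in an intron of Bcl3, an IkB family regulator at 39.8 TPM, and Gm47009 (3.33 ± 1.47 TPM) in Irak3 (15.9 TPM). Gm15346 had 2.60, 3.13 and 2.98 TPM inside Ikbkb, the kinase IKK beta, at 112 TPM. Their partners ranged from 15.9 to 2282 TPM, levels at which detection was also more frequent among all antisense genes.

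The cytokine and chemokine list had 4 annotated antisense genes, of which 2 were detected (50%, beside 13.9% of all annotated antisense genes). Of its 35 genes, 31 were themselves at 1 TPM or more in all libraries. Il1bos had 10.5, 8.24 and 14.5 TPM, and Il1b had 570.2, 747 and 667 TPM. Il1b was far above Il1bos in every library, by 5.80 ± 0.48 on the log2 scale. Il1bos was lowest in replicate 2 and highest in replicate 3, and Il1b was lowest in replicate 1 and highest in replicate 2. Gm47118 (2.29 ± 1.21 TPM, from 7 counts on average) lies inside Edn1, the gene of endothelin 1, at 1.68 TPM. Of 3 whose partner is on the interferon list 1 was detected (33.3%), and 45 of the 47 list genes found were at 1 TPM or more in all libraries. It was Gm13822 at the start of Oasl1, with 2.20, 1.07 and 1.00 TPM from 3.33 counts on average. Members that overlap such a gene beside a longer partner are not counted. For example, Dhx58os overlaps Dhx58 (42.3 TPM) by 2637 bases, but its partner by longest overlap is Zfp385c (0.363 TPM). Gm16094 had 30.5, 16.6 and 41.6 TPM and starts head to head with Sp110, an interferon-induced nuclear body gene at 95.6 TPM.

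Immediate early genes had 7 annotated antisense genes, of which 4 were detected (57.1%, beside 13.9% of all annotated antisense genes). Of the 51 genes of that list, 42 were themselves at 1 TPM or more in all libraries. Gm36328 (11.5 ± 2.66 TPM) lies in an intron of Dusp16, a MAP kinase phosphatase at 36.2 TPM. Gm20033 (1.84 ± 0.140 TPM) overlaps the start of Klf3 (37.8 TPM), Junos (1.53 ± 0.155 TPM) that of Jun (4.36 TPM), and Gm13748 (2.38 ± 1.09 TPM) lies inside Klf7 (60.4 TPM). The only antisense gene over the TLR4 signalling list was not detected, while Map2k3os (2.20 ± 1.25 TPM) starts head to head with Map2k3 (104 TPM).

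Of 13 antisense genes over genes of the macrophage list, 6 were detected (46.2%, beside 13.9% of all annotated antisense genes). Of the 47 list genes found, 43 were themselves at 1 TPM or more in all libraries. Whether any of these lists differs from other antisense genes at like partner levels was not tested. Zeb2os (chr2:45110707-45114087, plus strand) lies inside Zeb2, a zinc finger transcription factor, and had 40.3, 35.9 and 32.2 TPM. Zeb2 itself had 1059, 1580.2 and 1245 TPM, which was above Zeb2os in every library, by 5.11 ± 0.38 on the log2 scale. Gm26626 (7.99 ± 1.73 TPM) lies in Runx1, a blood cell transcription factor (176 TPM), and Runx2os2 (2.74 ± 0.790 TPM) in an intron of Runx2 (2.30 TPM). Gm15283 (4.70 ± 0.390 TPM) spans Hif1a, the hypoxia factor, at 51.7 TPM. Gm47123 in Ctsl and 1700019L13Rik in Cx3cr1 are described elsewhere.

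Intronic antisense genes can be set beside sense-intronic genes, which lie in introns on the same strand as their host and serve as a within-library reference. Only genes with a single overlapping coding gene, the host, were used, with the host at 20 TPM or more and 0.1 TPM added to each level before the log2 ratio. The median log2 level relative to the host was -3.83 ± 0.13 (SD, n = 3) for 119 antisense genes in 102 hosts and -3.94 ± 0.17 for 67 sense-intronic genes in 54 hosts. The difference between both medians was 0.03, 0.08 and 0.23 in replicates 1, 2 and 3, or 0.11 ± 0.11 (SD, n = 3), a mean about as large as its spread. Of these genes 63.0% and 67.2% were detected. With hosts of 5 TPM or more the difference was -0.63 ± 0.14 and with 50 TPM or more -0.12 ± 0.10. At the limit of 20 TPM with 1 TPM added it was -0.11 ± 0.11, so its sign depended on both the limit and the added constant. The comparison was chosen after values were seen.

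Members were highest in replicate 2 in 60.0% of cases and lowest in replicate 1 in 63.8%, beside 62.2% and 74.4% of all detected genes, so this order is not particular to them. Replicates 1, 2 and 3 were made from 1000, 250 and 500 ng of RNA. Starting RNA and other differences between the replicates cannot be told apart. Pearson correlations of log2(TPM + 1) over the 425 genes were 0.92 for replicates 1 and 2, 0.96 for 1 and 3 and 0.93 for 2 and 3. Between the quartiles of their levels the median SD of log2(TPM + 1) was 0.32 in 213 members and 0.28 in 3318 coding genes of the same levels, which had a median of 163 counts against 63.3. In 48 members at least 1 library had fewer than 10 counts.

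Some members varied far more than that. Gm37885, in Capn2, had 2.01, 10.01 and 10.03 TPM, and Gm47689, in an intron of Ppp2r5e, had 4.28, 5.17 and 18.5 TPM. Replicate 1 was the low one for Gm37885, and replicate 3 the high one for Gm47689. 5830432E09Rik, in the phosphatase gene Ptpre, had 10.2, 33.8 and 17.4 TPM, highest in replicate 2 like Gm17056 and Airn. Others were nearly constant: 4933431G14Rik had 6.96, 6.92 and 6.79 TPM, Aknaos 19.8, 19.6 and 20.4 TPM, Gm20234 36.2, 34.9 and 36.4 TPM, and Gm45188 6.21, 6.47 and 6.17 TPM.

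After each library's median shift was removed, deviations from the mean over libraries had a Pearson correlation of 0.23, 0.43 and 0.31 in replicates 1, 2 and 3 over 382 pairs with a detected partner. These are descriptions over pairs that share libraries. Igf1os, highest in replicate 2 with 4.56 TPM against 1.78 and 1.74 TPM, overlaps Igf1, the growth factor gene, at 82.2 ± 48.2 TPM.

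The isoform ratio of the coding partners used no antisense transcript, but the partners were picked through the detected antisense genes. Where strand was not used, the same reads could enter both, so the ratio may not be independent of the selection. Whether reads were shared in this way was not tested. For 253 partners with annotated retained-intron and coding isoforms, the ratio of their summed TPM was tested against 1 with limma over the 3 libraries, at a Benjamini-Hochberg adjusted p of 0.05 over all 5597 genes tested. Retained-intron isoforms were higher in 101 partners (39.9%), coding isoforms in 90 (35.6%), and 62 passed in neither direction. Over all genes tested, 35.5% had higher retained-intron and 31.9% higher coding isoforms. The difference between the partners' shares and these was not tested, and it varied with the setting. Without the limit on low values the partners' shares were 38.4% and 33.7%, beside 25.5% and 25.9% of all genes. With the tables of estimated counts they were 42.2% and 37.9%, beside 46.7% and 32.4%. A limma p here measures the spread between libraries only. In a chromatin fraction, reads of nascent, partly spliced transcripts and reads of retained-intron isoforms cannot be told apart in these ratios.

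**Figure D4:**
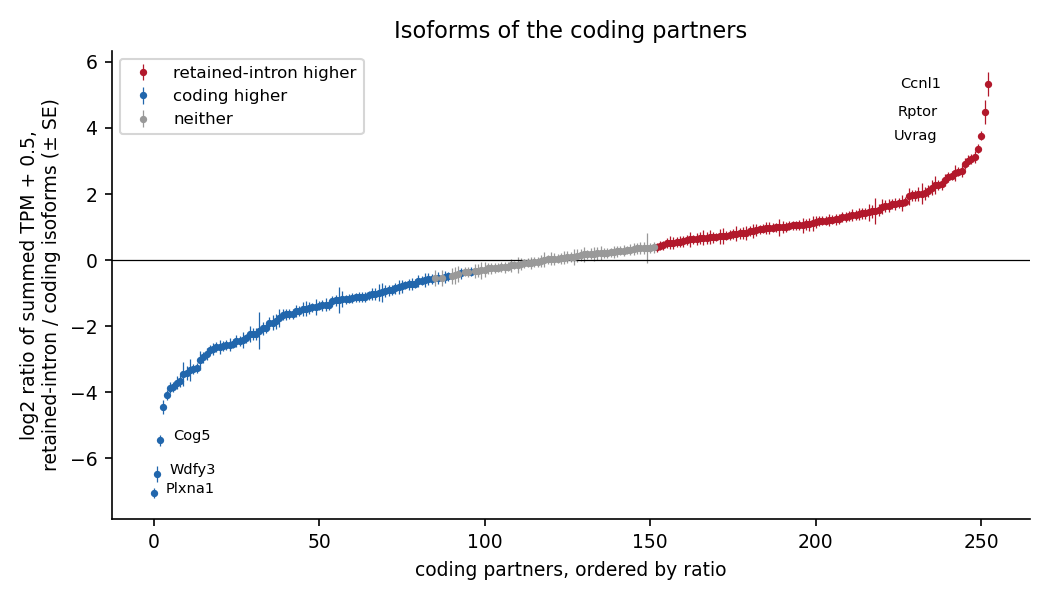
Log2 ratio of summed TPM (0.5 added to each) of retained-intron to coding isoforms (vertical, ± SE, n = 3) for 253 coding partners ordered by ratio (horizontal), coloured by the call. Values run from -7.04 for Plxna1 to 5.34 for Ccnl1, with 62 partners called in neither direction.

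Retained-intron isoforms of Ccnl1, a cyclin of the splicing machinery opposite Gm37305, stood at 339 TPM and coding isoforms at 9.46 TPM, a log2 ratio of 5.34 ± 0.36 (SE, limma adjusted p = 5.1e-06). Rptor followed with 4.49 ± 0.36 (limma adjusted p = 1.33e-05), then Uvrag, an autophagy gene, with 3.77 ± 0.14 (limma adjusted p = 3.5e-07). Camk2d, Hnrnpl and Ddhd1 had ratios of 3.37, 3.12 and 3.06. At the lower end were Plxna1 with -7.04 ± 0.14, where retained-intron isoforms were at 0, Wdfy3 with -6.47 ± 0.23 and Cog5 with -5.44 ± 0.17, whose retained-intron isoforms were also at 0. Pim1, a kinase gene, had -3.86 ± 0.17. Because of these zeros the ratios of Plxna1 and Cog5 depend on the added 0.5.

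Partners from the gene lists that could be tested fell on both sides. Over all genes tested, 35.5% had higher retained-intron isoforms, and the lists were chosen with earlier results known. Whether the partners of a list differ from that share was not tested. Of the 6 NF-kB list partners, Tnfaip2 was the exception to higher retained-intron isoforms. These were higher in Ikbkb (82.8 against 16.7 TPM, log2 ratio 2.27 ± 0.15), in Ikbke (441 against 171 TPM, log2 ratio 1.37 ± 0.15), in Bcl3 (0.99 ± 0.15), in Irak2 (0.70 ± 0.13), in Irak3 (0.64 ± 0.18), and outside that list in Klf3 (1.42 ± 0.16) and Oasl1 (1.31 ± 0.14). Coding isoforms were higher in Tnfaip2 (-0.55 ± 0.19, limma adjusted p = 0.0291), in Dusp16 (-4.07 ± 0.15), in Runx2 (-1.46 ± 0.24), in Ctsl (-0.75 ± 0.13) and in Runx1 (-0.34 ± 0.14, limma adjusted p = 0.0497). Il1b (0.39 ± 0.16, limma adjusted p = 0.0546), Zeb2 (-0.06 ± 0.14) and Hif1a (0.21 ± 0.15) passed in neither direction.

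The deposited data hold a second quantification, with estimated counts per transcript, and it gave the antisense genes higher values. Of the 3063 annotated genes 1100 reached 1 TPM in all libraries there (35.9%, beside 32.6% of all genes), 417 of the 425 members among them and 683 others. For the members the second value was within 2-fold of the first in 219, more than 2-fold higher in 200 and more than 2-fold lower in 6. The median ratio was 1.92, beside 1.58 for coding genes, 2.13 for intronic and 1.69 for exonic members and 1.58 for the 21 with no expressed coding overlap. Ranks of both had a Spearman correlation of 0.76 over the 425 genes.

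**Figure D5:**
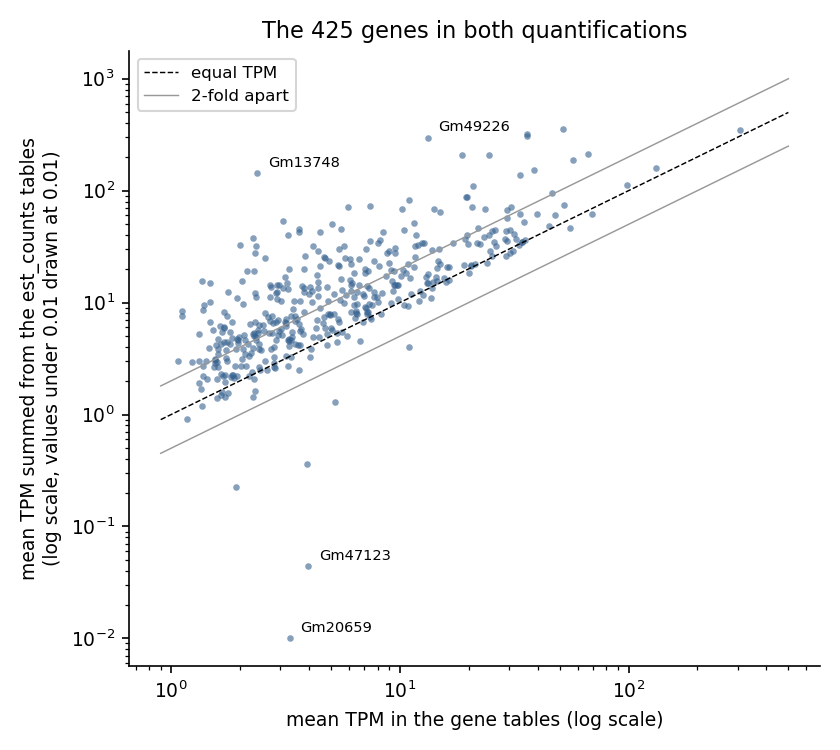
Mean TPM of the 425 genes in the gene tables (horizontal) and summed from the transcript tables with estimated counts (vertical), both on log axes, with lines for equal values and for 2-fold differences. Of the points, 200 lie above the upper line and 6 below the lower one, and Gm20659 is at 0 in the second tables.

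Single genes differed widely. Gm13748 had 2.38 TPM in the gene tables, from 6.67 counts, and 144 TPM in the second tables, and Gm49226, in an intron of App, the amyloid precursor gene, had 13.2 and 298 TPM. None of the 31-base words of either occurs in another gene's transcripts, on either strand, and the cause of the gap was not tested. In the other direction Gm20659 had 3.31 and 0 TPM and Gm47123 3.98 and 0.0445 TPM. Their exons lie wholly in exons of Dusp3 (8.56 TPM) and Ctsl, the cathepsin L gene (76.2 TPM), and 96.2% and 98.2% of their words are the reverse complement of other transcripts. Of the leading members, Gm40578 had 346 TPM in the second tables, 4933423P22Rik 158 TPM, F630028O10Rik 46.3 TPM and Gm27177 62.4 TPM, all within 2-fold. More than 2-fold higher there among the leading 20 were Gm27222 (359 TPM), Zeb2os (319 TPM), Gm20234 (308 TPM) and Gm28913 (213 TPM). So were Gm15726 (187 TPM), Airn (154 TPM) and Gm37787 (94.8 TPM).

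Just inside the limit of the rule were Gm29200, Gm15859, Gm13822, Gm12868 and Gm10390, whose lowest library was at 1.00 to 1.01 TPM, with means of 1.07 to 1.91 TPM. Just outside were Gm48420, Gm15819, Gm43825, Gm14225 and 4930414N06Rik, whose lowest library was at 0.96 to 0.98 TPM, with means of 1.07 to 1.73 TPM. In single libraries 479, 577 and 525 of the 3063 genes reached 1 TPM, and 1457 had no count in any library.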

How the data were processed

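Total RNA-seq of chromatin-bound RNA gave 3 libraries of 1 group. Per the file headers, each library has a gene table and a transcript table in which the authors deposited an expected count and a TPM column, and a further transcript table whose columns are an estimated count and TPM. Text files with no measurements were not used. Per the labels the assembly was mm10, and the deposited text files name GENCODE M21. For programs, versions and strand setting: not given in the sources used here. Gene and transcript types, exons and partners were taken from GENCODE M21. TPM was used as deposited, on the scale log2(TPM + 1), and means are given with the SD over 3 libraries. The isoform ratio, with 0.5 added and only for genes whose summed TPM averaged 1 or more, was tested with limma 3.58.1 (intercept, variance trend, Benjamini-Hochberg) in R 4.3.3. It was also run on simulated levels of 5597 genes, with a coefficient of variation of 0.2 throughout and most ratios at 1. Among 100 genes simulated at a log2 ratio of 1 in either direction, 88% were called, and 5.53% of all calls were false. Reads shared between isoforms were not simulated, so the check does not cover them. Other steps used Python 3.11.15, NumPy 2.4.6 and pandas 2.3.3. Words of 31 bases were compared over all M21 transcripts.

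The members and the gene lists were chosen with earlier results of these data known. Genes named are the 20 most abundant, 5 on either side of the limit, those with a partner in the lists (at most 6 per list), the 8 most and 4 least variable with a mean count of at least 50, the 8 largest and 8 smallest differences from the partner, the 6 largest ratios between quantifications in each direction, the 6 highest and 6 lowest isoform ratios, and genes with established symbols, of which a selection is printed; others were named after their values were seen. Total expected counts were 13318395, 15352661 and 15812581. Chi-square per degree of freedom over members came to 11.8 (replicates 1, 2), 4.52 (replicates 1, 3) and 13.3 (replicates 2, 3), above what sampling noise gives.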

Additional observations from a re-analysis of the deposited data

How the results depend on the processing

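The number of detected antisense genes was 1100 with the tables of estimated counts, and between 438 and 473 without 1 of the replicates. Other limits gave 591 (0.5 TPM), 288 (2 TPM), 377 (10 counts as well) and 513 (mean of 1 TPM). The median level of 2.42 was 2.16 with a pseudocount of 0.1, 3.53 with the estimated counts, 0 over all 3063 annotated genes, and between 2.35 and 2.51 without 1 replicate. Antisense genes with a partner numbered 411 by span and 245 when exons had to overlap. The median difference of 1.93 between partner and antisense gene was 2.14 with a pseudocount of 0.1, 3.46 with CPM of the counts, which are not per length, 1.72 with the estimated counts, 0.33 over all 2834 annotated pairs and 2.07 with partners of at least 1 TPM. It lay between 1.88 and 1.95 without 1 replicate. The difference between intronic antisense and sense-intronic genes of 0.11 was -0.63 with hosts of 5 TPM, -0.12 with hosts of 50 TPM and -0.11 with a pseudocount of 1, and the cause was not tested. Calls of partners were 89 to 95 for retained-intron and 78 to 91 for coding isoforms without 1 replicate, and 97 to 108 and 86 to 97 under the other settings; 9 of 168 partners called by both quantifications had opposite signs. No paired analysis was possible because all 3 libraries belong to 1 group. Depth limits the scarce members most: 48 have fewer than 10 counts in some library.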

Other observations

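Among the 683 antisense genes that reached 1 TPM in all libraries only with the estimated counts, Gm20400 had 0 TPM in the gene tables and 319 TPM in the second tables, and Gm28960 had 0 and 279 TPM. Their coding partners were at 0 in the gene tables.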
